A study of Mus musculus with 9 samples.

Results

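Genes that mark Schwann cells and the myelin of peripheral nerve were examined in bulk RNA from the mouse spinal cord after contusion injury. The 8 genes, Prx, Pmp22, Pmp2, Ncmap, Egr2, Drp2, Cdh19 and Mal, were taken by name from the 52550 genes of the count table. Of the 18699 genes that passed the filter on low counts, 7 were among them, and Pmp2 was not. Adult female C57BL/6N mice were divided into 3 groups of 3, each library coming from the cord around the injury at day 7. The Sham mice had the vertebral lamina removed and no injury. The SCI mice received a thoracic contusion from an Infinite Horizons impactor and intraperitoneal dimethyl sulfoxide (DMSO), the solvent. The SCI+FIPI mice received the same contusion and daily intraperitoneal FIPI, an inhibitor of phospholipase D, dissolved in DMSO. Sham mice thus differed from the injured mice in both the contusion and the injections, and the tissue was a whole segment with no sorting of cells.

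Schwann cells make the myelin of peripheral nerves and of the spinal roots, whereas oligodendrocytes make the myelin of the brain and spinal cord. Both cell types use the transcription factor Sox10 and the myelin basic protein, but Pmp22 and Prx belong chiefly to peripheral myelin, and Mog and Mobp are used as markers of central myelin. After spinal cord injury, Schwann cells are known to enter the lesion from the roots, and cells of the cord itself can also give rise to them. In bulk tissue, more cells of a type and more RNA per cell cannot be told apart, and how much nerve root was dissected with each segment is not recorded in the labels.

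The libraries held between 20806000 and 24582377 counts, and levels are given as CPM, the counts of a gene scaled to the size of its library, or, between genes, as FPKM, the same divided by the exonic length. Marker lists for other cells of the segment are given in ranges of summed CPM. The 9 fibroblast genes summed to 575 to 1429 CPM in Sham, 11031 to 14454 in SCI and 10177 to 12581 in SCI+FIPI. The 9 macrophage and microglia genes summed to 432 to 629, 3471 to 3987 and 2557 to 3196 CPM, and the 11 neuronal genes to 8317 to 9438, 2652 to 3733 and 4345 to 5113 CPM. The 9 sensory ganglion genes summed to 97.4 to 126 CPM in Sham, 58.1 to 85.4 in SCI and 82.3 to 106 in SCI+FIPI. Within that list, the highest count in any mouse was 1 for Mrgprd and 4 for Scn10a, but 1761 for Prph, 774 for Calca and 545 for Tac1, which neurons of the cord also express. What part these other cells had in the values of the 8 genes was not tested.

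The profiles of Prx and Ncmap over the mice were the most alike among the 8, and Mal fell in both comparisons with Sham. For Prx, Ncmap and Mal, the sequence before the start of the gene is shown. Each runs 5′ to 3′ on the strand of the gene and ends at the last base before the annotated RefSeq start (GRCm38.p6). Capitals mark CCAAT or GGGCGG on either strand. The Prx sequence lies at chr7:27499074-27499323 on the plus strand. Ncmap has 2 annotated starts, at chr4:135398228-135398477 and chr4:135385673-135385922, and Mal lies at chr2:127656696-127656945, these 3 on the minus strand.
Prx: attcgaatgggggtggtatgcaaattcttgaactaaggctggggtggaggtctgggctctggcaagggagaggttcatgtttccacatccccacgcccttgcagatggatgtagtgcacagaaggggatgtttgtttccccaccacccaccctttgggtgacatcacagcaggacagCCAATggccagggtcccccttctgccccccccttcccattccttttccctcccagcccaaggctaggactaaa
Ncmap, first start: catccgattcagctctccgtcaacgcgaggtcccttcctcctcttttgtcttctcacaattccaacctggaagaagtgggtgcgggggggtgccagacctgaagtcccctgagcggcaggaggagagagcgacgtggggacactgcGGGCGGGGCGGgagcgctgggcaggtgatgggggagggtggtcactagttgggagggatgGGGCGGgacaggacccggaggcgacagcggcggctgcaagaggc
Ncmap, second start: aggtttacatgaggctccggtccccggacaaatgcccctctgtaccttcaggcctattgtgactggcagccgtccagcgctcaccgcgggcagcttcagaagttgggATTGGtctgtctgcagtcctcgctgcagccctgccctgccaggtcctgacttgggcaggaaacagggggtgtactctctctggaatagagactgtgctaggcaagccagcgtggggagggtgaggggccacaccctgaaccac
Mal: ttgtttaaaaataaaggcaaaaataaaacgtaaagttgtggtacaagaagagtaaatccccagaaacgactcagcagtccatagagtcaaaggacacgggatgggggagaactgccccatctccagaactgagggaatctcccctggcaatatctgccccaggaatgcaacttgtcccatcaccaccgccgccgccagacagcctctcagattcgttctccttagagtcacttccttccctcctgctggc
Of the 8 genes, 5 had sequences in the table used, with 13 starts between them, and none was given for Pmp2, Drp2 or Cdh19. The letters ACAAAG and ACAATG, which SOX factors can bind, were found on neither strand in any of the 13 windows of 250 bases, and neither was GCGNGGGCG, the consensus of the EGR family. Over all 32851 mouse windows of that length, ACAAAG was present in 16.5%, ACAATG in 10.7% and GCGNGGGCG in 4.7%. CCAAT was present in 7 of the 13 windows and in 33.8% of all, and GGGCGG in 5 of the 13 and in 32.7% of all. The windows of neighbouring starts overlap, so the 13 are not independent, and the last pair of motifs was chosen after the sequences were seen. The Prx window has a single CCAAT, the first Ncmap window has GGGCGG and the second a CCAAT read on the other strand, and the Mal window has neither. A match is a run of letters and not evidence that a factor bound there, and the absence of one says only that the letters are not in the window.

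Prx encodes periaxin, a scaffold protein of the Schwann cell that stabilises mature peripheral myelin. The gene (ENSMUSG00000053198, GRCm38 chr7:27499324-27520214, plus strand, protein-coding) had 34.7, 67.7 and 35.9 CPM in Sham mice 1, 2 and 3. It had 75.6, 57.1 and 61.1 CPM in SCI mice 1, 2 and 3. SCI+FIPI mice 1, 2 and 3 had 38.0, 107.0 and 104.6 CPM. Sham 2 was as high as an injured mouse, SCI+FIPI 1 was as low as a Sham mouse, and the ranges of the 3 groups overlapped. The means were 46.1 ± 18.7, 64.6 ± 9.76 and 83.2 ± 39.2 CPM (SD, n = 3) in Sham, SCI and SCI+FIPI. The log2 fold change was 0.49 in SCI against Sham (SE 0.46, edgeR adjusted p = 0.392), 0.37 in SCI+FIPI against SCI (SE 0.45, adjusted p = 0.681) and 0.85 in SCI+FIPI against Sham (SE 0.46, adjusted p = 0.161). None passed the test. Without SCI+FIPI 1, the last of these was 1.20 and passed (edgeR adjusted p = 0.0231). Prx in SCI+FIPI against Sham did not pass in the other 19 of 20 alternative settings. It ran from 0.63 to 1.24 over the mice left out. Of the exonic bases of Prx, 5.4% are also covered by the antisense gene Gm15541, which had 1 to 19 counts per mouse, against 724 to 2524 for Prx.

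Ncmap encodes a membrane protein of noncompact peripheral myelin (ENSMUSG00000043924, chr4:135369576-135398227, minus strand). It had 6.04, 11.8 and 8.27 CPM in Sham mice 1, 2 and 3, 14.0, 10.8 and 11.9 CPM in the SCI mice and 7.06, 20.4 and 17.9 CPM in the SCI+FIPI mice. The high and low mice were those of Prx, with Sham 2 above the lowest SCI mouse and SCI+FIPI 1 within the Sham range. The log2 fold change was 0.49 in SCI against Sham (SE 0.42, edgeR adjusted p = 0.342), 0.31 in SCI+FIPI against SCI (SE 0.41, adjusted p = 0.705) and 0.80 in SCI+FIPI against Sham (SE 0.42, adjusted p = 0.146). Without SCI+FIPI 1, the last was 1.13 and passed the test (edgeR adjusted p = 0.00211). Ncmap in SCI+FIPI against Sham did not pass in the other 19 of 20 alternative settings. It ran from 0.52 to 1.13 over the mice left out.

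Pmp22 encodes a tetraspan protein of compact myelin whose duplication causes a hereditary neuropathy (ENSMUSG00000018217, chr11:63128982-63159547, plus strand). It had 188, 263 and 190 CPM in Sham mice 1, 2 and 3. The SCI mice were close to each other, at 313, 298 and 312 CPM, and all lay above the Sham mice. The SCI+FIPI mice were at 239, 393 and 408 CPM, so SCI+FIPI 1 lay below Sham 2. The log2 fold change in SCI against Sham was 0.53 (SE 0.22, 95% interval -0.01 to 1.06) and did not pass (edgeR adjusted p = 0.0756). Pmp22 rose in SCI+FIPI against Sham by 0.70 on the log2 scale (SE 0.22, edgeR adjusted p = 0.0314), although the ranges overlapped. The difference between SCI+FIPI and SCI was 0.17 (SE 0.22, adjusted p = 0.695). Both comparisons with Sham depended on single mice. Without Sham 2 or without SCI+FIPI 1, SCI against Sham passed (0.70, adjusted p = 0.0300, and 0.53, adjusted p = 0.00200). Without any of Sham 1, Sham 3, SCI 1, SCI 3, SCI+FIPI 2 or SCI+FIPI 3, SCI+FIPI against Sham did not pass, with adjusted p between 0.0568 and 0.10.

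Drp2 encodes dystrophin-related protein 2, which joins periaxin to the dystroglycan complex at the outer membrane of the Schwann cell (ENSMUSG00000000223, chrX:134404551-134456573, plus strand). It had 87.6, 116 and 91.6 CPM in Sham mice 1, 2 and 3, 111, 99.9 and 84.4 CPM in the SCI mice and 84.1, 129 and 124 CPM in the SCI+FIPI mice. The 3 groups overlapped throughout. The means of Sham and SCI were 98.3 ± 15.3 and 98.3 ± 13.2 CPM (SD, n = 3), and the 95% interval of the log2 fold change ran from -0.46 to 0.46 (edgeR adjusted p = 0.999). In SCI+FIPI the mean was 113 ± 24.7 CPM, which was 0.20 above SCI on the log2 scale (SE 0.19, adjusted p = 0.591) and 0.20 above Sham (SE 0.19, adjusted p = 0.423). Drp2 thus passed no test, and its sign in SCI against Sham is not defined at this precision.

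**Figure D1:**
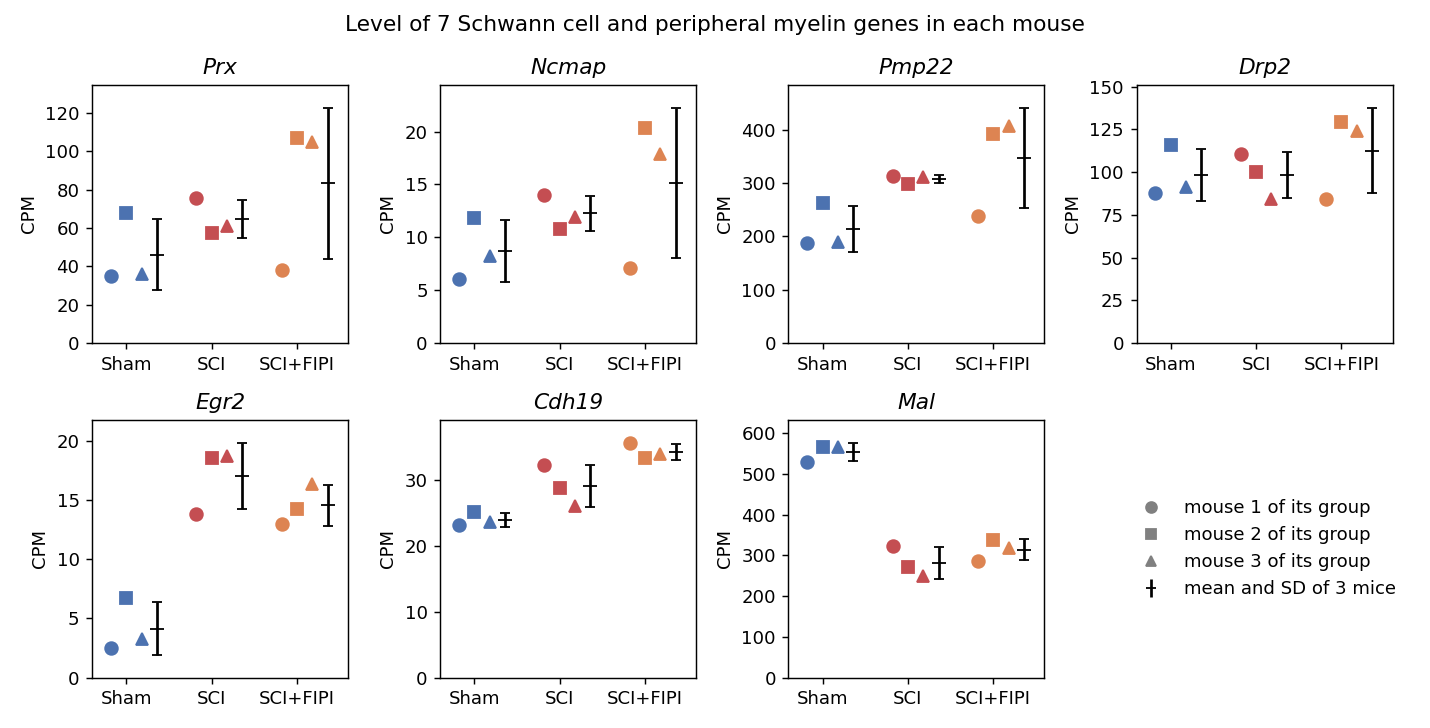
Level of each of the 7 tested genes in CPM, with 1 point per mouse (its shape giving the number of the mouse in its group) and bars for the mean and SD of the 3 mice. In Prx, Ncmap, Pmp22 and Drp2, SCI+FIPI mouse 1 lies below the other SCI+FIPI mice, whereas Mal is lower in all 6 injured mice (249 to 338 CPM) than in the Sham mice (530 to 567 CPM).

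Egr2 encodes Krox20, the zinc-finger transcription factor that Schwann cells need to begin myelination, and it is also an inducible gene of macrophages and lymphocytes. The gene (ENSMUSG00000037868, chr10:67535475-67542188, plus strand) had 2.49, 6.69 and 3.26 CPM in Sham mice 1, 2 and 3. It had 13.8, 18.5 and 18.7 CPM in the SCI mice and 13.0, 14.2 and 16.4 CPM in the SCI+FIPI mice. All 6 injured mice lay above all Sham mice. Egr2 rose by 2.03 on the log2 scale in SCI (SE 0.31, edgeR adjusted p = 0.000488), or 4.08-fold, and by 1.80 in SCI+FIPI (SE 0.32, adjusted p = 0.00126). The injured groups overlapped, with a difference of -0.23 (SE 0.28, 95% interval -0.88 to 0.42, adjusted p = 0.674). The 9 macrophage and microglia genes rose in the same comparisons with Sham, by a median of 2.65 in SCI and 2.25 in SCI+FIPI on the log2 scale, and their part in the level of Egr2 was not tested.

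Cdh19 encodes a cadherin found in cells of the Schwann lineage (ENSMUSG00000047216, chr1:110888326-110977584, minus strand). Its replicates were close, at 23.1, 25.1 and 23.7 CPM in Sham, 32.4, 28.9 and 26.0 CPM in SCI and 35.6, 33.3 and 33.9 CPM in SCI+FIPI. No group overlapped another, and the order was Sham, SCI, SCI+FIPI. Its log2 fold change in SCI against Sham was 0.28 (SE 0.08, edgeR adjusted p = 0.00941), which is below the limit of 0.5 set for a call. Cdh19 rose in SCI+FIPI against Sham by 0.51 (SE 0.08, adjusted p = 9.44e-05), just past the limit. SCI+FIPI exceeded SCI by 0.24 (SE 0.08, 95% interval 0.06 to 0.41), which missed the threshold (edgeR adjusted p = 0.0868). Without Sham 1 or without SCI+FIPI 1, the change in SCI+FIPI against Sham was 0.49, just inside the limit. The exons of Cdh19 had the lowest GC content of the 8 genes (37.4%), and with offsets for GC content and length its change in SCI against Sham was 0.54 (adjusted p = 6e-05).

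Mal encodes a small membrane protein of myelin that oligodendrocytes make as well as Schwann cells (ENSMUSG00000027375, chr2:127633226-127656695, minus strand). It had 530, 567 and 566 CPM in Sham mice 1, 2 and 3, 324, 271 and 249 CPM in the SCI mice and 286, 338 and 319 CPM in the SCI+FIPI mice. Every injured mouse lay below every Sham mouse. Mal fell by 0.98 on the log2 scale in SCI (SE 0.09, edgeR adjusted p = 3.6e-07) and by 0.82 in SCI+FIPI (SE 0.09, adjusted p = 3.32e-06). SCI+FIPI and SCI overlapped, with a difference of 0.16 (SE 0.09, 95% interval -0.04 to 0.35, adjusted p = 0.304).

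Pmp2 encodes the fatty-acid-binding protein of peripheral myelin (ENSMUSG00000052468, chr3:10179851-10183929, minus strand). It had 1 count in SCI 2, 1 in SCI+FIPI 3 and 0 in the other 7 mice. In the annotation, 86.9% of its exonic bases are shared on the same strand with Gm37389, which had 0 counts in all mice. Among protein-coding genes with at least 80% of their exonic bases shared in that way, 153 of 213 (71.8%) had at most 1 count in every mouse, against 3547 of 20131 (17.6%) of those with none shared. Whether reads of Pmp2 were left out for this reason was not tested, and no level of its expression is given.

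**Figure D2:**
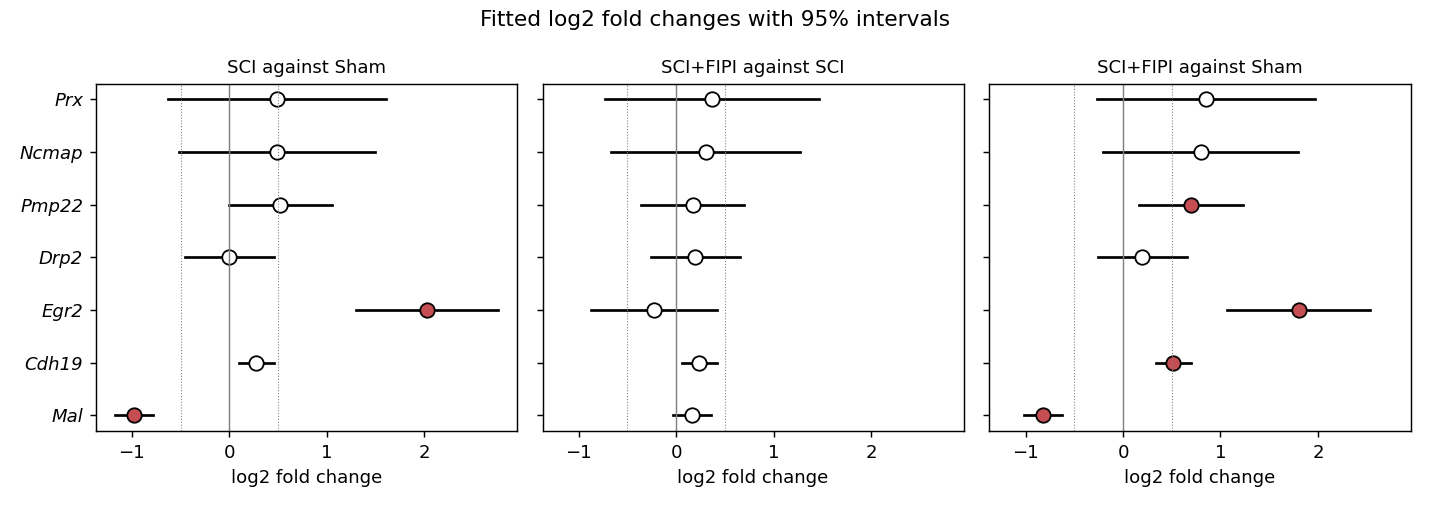
Log2 fold change of the 7 tested genes in the 3 comparisons, with lines for the 95% interval, filled points where both limits were passed and dotted lines at the limit of 0.5 in each direction. Egr2 and Mal lie past the limits in both comparisons with Sham (2.03 and -0.98 in SCI), and in SCI+FIPI against SCI all values lie between -0.23 and 0.37.

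In SCI against Sham, 2 of the 7 tested genes passed both limits, Egr2 upward and Mal downward, where 47.0% of all 18699 genes tested did (24.4% higher, 22.5% lower). Their median log2 fold change was 0.49, against -0.0031 over all genes tested. In 4 of the 7 (Egr2, Pmp22, Cdh19 and Mal) the groups did not overlap, as in 70.5% of all genes. Against Sham, 4 of the 7 passed in SCI+FIPI, 3 upward (Egr2, Pmp22 and Cdh19) and 1 downward (Mal), where 38.1% of all genes did (21.2% higher, 17.0% lower). The median was 0.70, against -0.0028 over all genes, and the groups did not overlap in 3 of the 7, as in 66.3% of all genes. The Sham mice are shared by the pair of comparisons, so they are not independent. Without Sham 1, 2 of the 7 passed in SCI+FIPI against Sham.

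In SCI+FIPI against SCI, which asks what the inhibitor changed in injured cord, 0 of the 7 passed by edgeR, where 3.06% of all genes did (2.36% higher, 0.695% lower). Cdh19 alone was at an unadjusted p under 0.05, and DESeq2 and limma-voom also gave 0 of the 7. The median was 0.20, against -0.0013 over all genes, and only Cdh19 had groups that did not overlap, which was so for 30.2% of all genes. The intervals were wide for Prx (-0.73 to 1.46) and Ncmap (-0.66 to 1.27) and narrower for Pmp22 (-0.36 to 0.70) and Drp2 (-0.26 to 0.65).

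Per length of exon, Mal was the most abundant in Sham, at 200 FPKM, followed by Pmp22 at 90.8, Drp2 at 11.5, Prx at 8.27, Cdh19 at 5.61, Ncmap at 3.91 and Egr2 at 1.22 FPKM. In that order only the ranges of Drp2 (10.2 to 13.5 FPKM) and Prx (6.22 to 12.1 FPKM) overlapped between neighbours. In SCI the mean of Pmp22 (131 FPKM) was above that of Mal (101 FPKM) with no overlap. Prx (11.6 FPKM) and Drp2 (11.5 FPKM) overlapped in SCI, and the range of Ncmap (mean 5.51 FPKM) overlapped those of Cdh19 (6.80 FPKM) and Egr2 (5.01 FPKM). Among SCI+FIPI mice the ranges of Pmp22 (147 FPKM) and Mal (113 FPKM) overlapped, as did those of Prx (14.9 FPKM) and Drp2 (13.2 FPKM). Ncmap (6.79 FPKM) again overlapped Cdh19 (8.01 FPKM) and Egr2 (4.28 FPKM). The range of Prx, which reached down to 6.81 FPKM in SCI+FIPI 1, also overlapped those of Cdh19 and Ncmap.

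The genes also differed in how far mice of a group lay apart. The pooled SD of log2 CPM within groups was 0.60 for Prx, 0.56 for Ncmap and 0.45 for Egr2, where the median over 14553 genes was 0.11. Of those genes, 98.9% had a smaller spread than Prx and 98.7% a smaller spread than Ncmap. Pmp22 (0.30) and Drp2 (0.26) were between, and Mal (0.14) and Cdh19 (0.10) were near the median. Sox10, present in both kinds of myelinating cell, had a spread of 0.13. All 7 tested genes were highest, within Sham, in Sham 2, though Mal and Cdh19 differed only 1.07-fold and 1.09-fold between the Sham mice. Within SCI, 6 of the 7 were highest in SCI 1, Egr2 being lowest there. Within SCI+FIPI, 6 of the 7 were lowest in SCI+FIPI 1, Cdh19 being highest there. No share over all genes is given for these orders, so the counts only describe the 7 genes. Between the highest and the lowest SCI+FIPI mouse, Prx differed 2.82-fold, Ncmap 2.89-fold, Pmp22 1.71-fold, Drp2 1.54-fold and Cdh19 1.07-fold. The 7 perineurium and meninges genes summed to 963, 1213 and 995 CPM in Sham mice 1, 2 and 3, 956, 874 and 885 CPM in SCI and 746, 1073 and 1095 CPM in SCI+FIPI, so the same mice were high and low in that list. The gene Ptgds made up most of the Sham sums (522, 746 and 515 CPM), and the part of such tissue in the values of Prx and Ncmap was not tested. Other lists shared part of that order. The central myelin and the sensory ganglion genes were also highest in SCI 1 and lowest in SCI+FIPI 1, but highest in Sham 1. Fibroblast genes were highest in Sham 2 and lowest in SCI+FIPI 1, but lowest in SCI 1. Macrophage and microglia genes were lowest in SCI 1 and highest in SCI+FIPI 1.

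The likeness of profiles was measured as the root mean square, over the 9 mice, of the difference in log2 CPM after each gene was centred on its own mean. Among the genes most like Prx were Ncmap (0.12) and Cldn19 (0.20), a claudin of the tight junctions of peripheral myelin. Cldn19 had 3.64, 10.8 and 4.97 CPM in Sham mice 1, 2 and 3, 12.6, 8.60 and 9.999 CPM in SCI and 6.57, 17.5 and 15.6 CPM in SCI+FIPI. Its log2 fold change was 0.68 in SCI against Sham (edgeR adjusted p = 0.282) and 0.35 in SCI+FIPI against SCI (adjusted p = 0.718), and neither passed. Among those most like Ncmap were Prx (0.12) and Ogn (0.17). Nearest to Pmp22 were Gm42970 (0.12), Lef1 (0.14) and Itga2b (0.14). Nearest to Drp2 were Art3 (0.085), B330016D10Rik (0.12) and Gm13375 (0.13), and nearest to Egr2 were Des (0.15), Vill (0.17) and Cd80 (0.19). Nearest to Cdh19 were Utp14a (0.081), Fbxw8 (0.086) and Tst (0.090), and nearest to Mal were Pygo1 (0.060), Pde4a (0.065) and Ndn (0.066). Among the 8 genes the farthest pair was Egr2 and Mal, at 1.44. Profiles over the same 9 mice share the same libraries, so these values are descriptions.

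**Figure D3:**
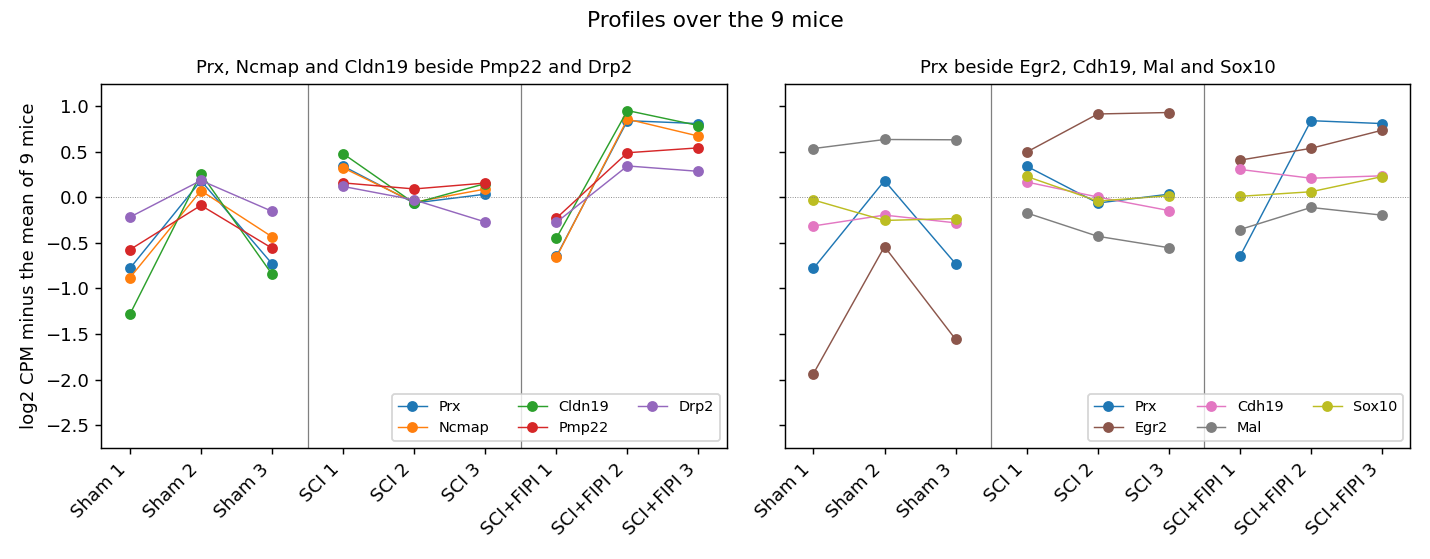
Log2 CPM of each gene in each of the 9 mice, minus its mean over the 9 mice, with thin lines that join mice only as a guide for the eye. Prx and Ncmap lie close together in most mice, less so in Sham 3 (-0.73 and -0.43), with SCI+FIPI 1 at the Sham level. Egr2 is raised and Mal lowered in all 6 injured mice.

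Ratios between genes within a mouse were compared by exact two-sided permutation tests over mice, which cannot go below p = 0.1 with 3 against 3. With 30 such comparisons, that smallest p becomes 0.3 after Benjamini-Hochberg adjustment. The log2 ratio of Ncmap to Prx was -2.39 ± 0.23 in Sham, -2.40 ± 0.04 in SCI and -2.46 ± 0.08 in SCI+FIPI (SD, n = 3), and the groups overlapped. The ratio of Pmp22 to Prx was 2.27 ± 0.27, 2.26 ± 0.19 and 2.17 ± 0.42, and the groups overlapped here too. The ratio of Drp2 to Prx was 1.15 ± 0.33 in Sham, 0.61 ± 0.18 in SCI and 0.56 ± 0.51 in SCI+FIPI, with overlapping groups (exact p = 0.2 for both injured groups against Sham). The ratio of Egr2 to Prx was higher in every injured mouse than in every Sham mouse, at -3.53 ± 0.24, -1.93 ± 0.46 and -2.38 ± 0.73. The ratio of Mal to Mbp, the gene of myelin basic protein, was lower in every injured mouse than in every Sham mouse, at -5.13 ± 0.10, -5.76 ± 0.13 and -5.67 ± 0.09. For these ratios, Egr2 to Prx and Mal to Mbp, the exact p of each injured group against Sham was 0.1, the smallest the design allows.

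The other genes of peripheral myelin and Schwann cells were read from a list of 23, all tested. Against Sham, 7 of them passed upward and 4 downward in SCI, a share near the 47.0% of all genes tested. Their median log2 fold change was 0.35. Of those that passed, the most abundant were Plekhb1 (-0.56), Dag1 (0.84), Itga6 (1.24), Gjb1 (-0.52) and Cmtm5 (-0.57). Dag1 encodes dystroglycan and Itga6 a laminin-binding integrin, and Gjb1, a connexin, is expressed by oligodendrocytes too. The largest change in the list was that of Nrn1, the gene of neuritin, which neurons also express, and it fell by 1.92. Among genes used as Schwann cell markers, and chosen after their values were seen, Gldn (1.27), Dhh (1.09) and Foxd3 (0.54) passed, while Sh3tc2 (-0.32), Scn7a (0.27) and Gfra3 (0.28) did not. Sox10 had a log2 fold change of 0.24 (edgeR adjusted p = 0.0223), below the limit of 0.5. Between SCI+FIPI and SCI, 1 of the 23 passed, Nrn1 (0.55), where 3.06% of all genes did, and 0 passed without SCI 2. The median of that comparison was 0.13. Compared with Sham, SCI+FIPI had 8 higher and 1 lower, where 21.2% of all genes tested were higher and 17.0% lower. The median was 0.42.

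The 16 genes of the transcription program of Schwann cells and its signals include partners of Egr2. Of these, 7 rose and 2 fell in SCI against Sham, where 24.4% of all genes tested were higher and 22.5% lower. Their median log2 fold change was 0.40. Of those that passed, the most abundant were Jun (1.21), a factor that opposes myelination, Wwtr1 (1.20), Yap1 (0.96) and Tead1 (0.90), of the Hippo pathway, and Nrg1, the axonal ligand of the ErbB receptors, which fell by 1.55. Nab2, a co-factor that binds Egr proteins, rose by 1.57, while Nab1, its relative, was at 0.11 (edgeR adjusted p = 0.225). Erbb2, a receptor subunit for neuregulin, rose by 1.63, whereas Erbb3, its partner, was at -0.28 and below the limit. Pou3f1, which acts before Egr2 in Schwann cells, was at 0.21 (adjusted p = 0.261). Between SCI+FIPI and SCI, 0 of the 16 passed both limits by edgeR, where 3.06% of all genes tested did. DESeq2 and limma-voom also gave 0 of the 16. The median was -0.12, and 5 were at an unadjusted p under 0.05, for which no share over all genes is given. An adjusted p under 0.05 alone was reached by 3 of the 16, as by 9.63% of all genes, and without SCI 1 or SCI+FIPI 1 the number past both limits was 2 and 1. Compared with Sham, 8 rose and 1 fell in SCI+FIPI, where 21.2% of all genes tested were higher and 17.0% lower. Most of these genes are expressed by other cells of the cord, and Nab1, Nab2, Erbb2, Erbb3 and Pou3f1 were picked as examples after their values were seen.

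The 15 genes of repair Schwann cells, the state taken by these cells after nerve damage, share Jun and Sox2 with the list before. After injury 5 rose and 3 fell in SCI against Sham, a share near the 47.0% of all genes tested. Their median log2 fold change was 0.21. Ngfr, a neurotrophin receptor, rose by 2.24 and Jun by 1.21, while L1cam, an adhesion molecule, fell by 0.91 and Bdnf by 0.80. Runx2, a transcription factor, rose by 1.70. Between SCI+FIPI and SCI, 0 of the 15 passed by edgeR, where 3.06% of all genes tested did. DESeq2 and limma-voom also gave 0. By edgeR, 3 were at an unadjusted p under 0.05, for which no share over all genes is given. Against Sham, 5 rose and 2 fell in SCI+FIPI, where 21.2% of all genes tested were higher and 17.0% lower. Several of these genes, Bdnf and L1cam among them, are expressed by neurons too.

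The 15 genes of central myelin and oligodendrocytes were examined beside Mal. By edgeR, 8 fell and 0 rose in SCI against Sham, where 22.5% of all genes fell and 24.4% rose, DESeq2 and limma-voom also gave 8, and none was higher at an unadjusted p under 0.05. The list had a median log2 fold change of -0.60. Mobp fell by 0.76, Tspan2 by 0.66, Ugt8a by 0.77 and Ermn by 1.24, and Mbp, at -0.36 (edgeR adjusted p = 0.00157), was below the limit. Their summed level was 34680 to 36328 CPM in Sham, 24534 to 27351 CPM in SCI and 25047 to 29602 CPM in SCI+FIPI. Between SCI+FIPI and SCI, 0 of the 15 passed by edgeR, where 3.06% of all genes tested did, and the median was 0.06. DESeq2 and limma-voom also gave 0. By edgeR, 2 were at an unadjusted p under 0.05, for which no share over all genes is given. Compared with Sham, 8 fell in SCI+FIPI, or 5 without SCI+FIPI 1, where 17.0% of all genes tested fell with all mice in. The genes nearest to Prx in profile included Cldn19. The 3 genes nearest to each of Pmp22, Drp2, Egr2, Cdh19 and Mal included none of the listed peripheral myelin genes. Among 14553 genes, the nearest 3 cannot decide the peripheral label, since many other genes can lie nearer. From Prx, the distance was 0.26 for Pmp22, 0.40 for Drp2, 0.50 for Cdh19, 0.79 for Egr2 and 0.85 for Mal. Mal moved in the direction of the central list.

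**Figure D4:**
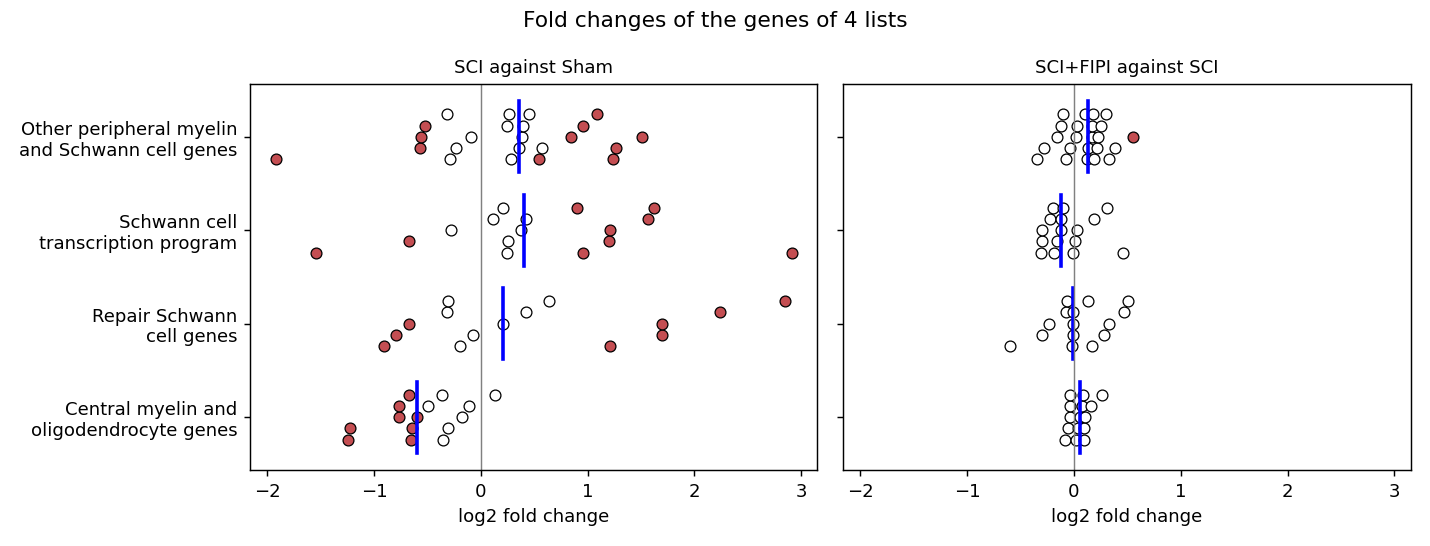
Log2 fold change of every tested gene in the 4 lists of related genes, for SCI against Sham and SCI+FIPI against SCI, with 1 point per gene (filled where both limits were passed, vertical position within a list without meaning) and a blue bar for the median. For SCI against Sham, the median is -0.60 for central myelin and 0.35 for the other peripheral myelin and Schwann cell genes, and between SCI+FIPI and SCI the single filled point is Nrn1 (0.55).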

How the data were processed

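Polyadenylated RNA from 9 cord segments (3 mice per group) was sequenced by Illumina. Before counting, the authors discarded poor-quality reads and adapters, and the deposited table holds raw counts per Ensembl gene with no normalization. The genome build (GRCm38) and R 4.2.3 are named in the submitters' processing notes. The aligner, the counting tool and its strand setting are not given in the sources used here. Sample columns were mapped to mice by their names, and 0 were left unmapped. Gene names, positions and exonic lengths came from GENCODE M21, which held 52403 of the 52550 identifiers.

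Counts were fitted with edgeR 4.0.16 (quasi-likelihood, robust, TMM factors, filterByExpr) in R 4.3.3 with all 9 mice in 1 model, 1 mean per group and 6 residual degrees of freedom. P-values were adjusted by Benjamini-Hochberg over 18699 genes. Following the study's limits, a gene passed when its log2 fold change reached 0.5 in either direction with an adjusted p under 0.05. FPKM used the union of exons. Log2 CPM used a prior count of 2, and likeness was computed over genes whose mean log2 CPM reached 1, the 3 most alike being named. The scripts were tested on simulated data. Totals of 20806000 to 24582377 counts set the counting precision, so the spread between 3 mice limits the results. No pair of replicates agreed within sampling noise (chi-square per gene 6.76 to 13.2).

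The named genes were the 8 members with every mouse's value, the genes of 11 further lists as counts with 2 to 5 examples (the most abundant past both limits, with Sox10 in any case) and the 3 genes most like each member. Some genes that this rule names are not reported here. The members and the lists were chosen with earlier results of these data known, so no test was made over a list. The lists share Sox10, Jun, Sox2 and Itgb4. Alternatives were other normalizations (RLE, upper quartile), no filter or at least 10 counts in every mouse, DESeq2 1.42.0, limma-voom (limma 3.58.1), the 2 groups compared alone, a replicate block, offsets for GC content and length, the adjusted p alone and each mouse left out.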

Additional observations from a re-analysis of the deposited data

How the results depend on the processing

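Across 20 alternatives, 385 of 420 log2 fold changes of the 7 tested genes kept their direction and their side of the limits, 12 came to pass, 11 no longer passed and 12 changed sign. All 12 changes of sign were of Drp2 in SCI against Sham, which is close to 0: 0.021 with no filter, 0.0020 with at least 10 counts, 0.0016 by limma-voom, 0.0067 on the 2 groups alone, 0.015 with the replicate block, 0.10 with offsets for GC content and length, 0.12 with both, and -0.095 to 0.13 over the mice left out. Egr2 and Mal passed in both comparisons with Sham under all 20. The number of the 7 that passed in SCI against Sham was 2 in the main fit and 2 to 3 over the mice left out. It was 2 to 4 otherwise, with Pmp22 or Cdh19 added in several settings. Both were added, giving 4, with the block and offsets together. In SCI+FIPI against Sham it was 4, with 2 to 5 over the mice left out (2 without Sham 1) and 3 to 4 otherwise. In SCI+FIPI against SCI it was 0 throughout (0 to 0 over the mice left out). Pmp22 in SCI against Sham also passed by DESeq2 (adjusted p = 0.0332), limma-voom (0.0157) and the 2 groups alone (0.00452), and in SCI+FIPI against Sham it missed with no filter (0.0690) and on the 2 groups alone (0.0916). Cdh19 in SCI+FIPI against Sham was at 0.47 with upper-quartile factors. The cause of these shifts was not tested.

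Replicate numbers marked different mice, and the labels do not say whether a number stands for anything that those mice share. Deviations of same-numbered mice correlated at -0.073 to 0.11, 1 of 9 pairs over 0.1, and 5 of 9 were best with their own number. These correlations cannot decide what the numbers stand for. With the replicate block, 3 of the 7 passed in SCI against Sham (Pmp22 added, 0.55, adjusted p = 0.0328), 0 in SCI+FIPI against SCI and 4 in SCI+FIPI against Sham. Over all genes, 572 passed in SCI+FIPI against SCI, 1800 by adjusted p alone, and 189 (without SCI+FIPI 2) to 1038 (without SCI 1) over the mice left out, while in SCI+FIPI against Sham 7128 passed and 11060 by adjusted p alone. Of those that passed in SCI+FIPI against SCI, 77.3% were higher, 62.8% by adjusted p alone, and 64.2% (without SCI+FIPI 1) to 87.8% (without SCI+FIPI 2) over the mice left out.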

Other observations

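Skeletal muscle genes, 7 in number, summed to 15.2, 34.4 and 7.81 CPM in Sham mice 1, 2 and 3, 14.4, 44.7 and 16.6 CPM in the SCI mice and 36.0, 31.7 and 23.6 CPM in the SCI+FIPI mice. SCI+FIPI 1, the lowest of its group for Prx, was thus the highest of its group for muscle genes. SCI 1, the highest of its group for Prx, was the lowest for muscle genes, whereas Sham 2 was the highest of its group for both. By edgeR, 1 of the 7 muscle genes rose in SCI against Sham. In that comparison, for this list and those below, 24.4% of all genes tested were higher and 22.5% lower. The 7 astrocyte genes summed to 8428 to 8849 CPM in Sham, 12355 to 14173 CPM in SCI and 12621 to 13206 CPM in SCI+FIPI, and 3 of them rose and 1 fell in SCI against Sham. All 11 neuronal genes fell in SCI against Sham (median log2 fold change -1.60). In SCI+FIPI against SCI, 6 of the 11 passed upward (median 0.57), where 2.36% of all genes tested did. All 9 fibroblast genes and all 9 macrophage and microglia genes rose in both comparisons with Sham. In SCI+FIPI against Sham, 21.2% of all genes tested were higher. Of the 7 perineurium and meninges genes, 1 rose and 1 fell in SCI against Sham, and of the 6 sensory ganglion genes tested, 1 rose and 3 fell.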
